A study of Mus musculus with 13 samples.

Results

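The fibroblast growth factor (FGF) ligands and receptors described here were 10 genes: the ligands Fgf7, Fgf8, Fgf9 and Fgf10, the receptors Fgfr1, Fgfr2, Fgfr3 and Fgfr4, and Spry1 and Spry2, whose Sprouty proteins dampen signalling from these receptors. They were chosen by name. On the Affymetrix MOE430 arrays, where a gene is read by sets of short oligonucleotide probes, 22 of the 45101 probe sets carried one of these symbols alone. The probe set with the highest mean over the 13 arrays stood for each gene and the others served as a check. Of the 10 genes, 9 passed the filter on low values and were tested among 15019 genes.

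The study compared neighbouring regions of the lower urinary tract in mouse embryos at embryonic day 14. Bladder (3 arrays, replicates 2, 6 and 8), urogenital sinus (4 arrays, replicates 1, 2, 6 and 7) and urethra (3 arrays, replicates 1, 2 and 6) came from FVB/N mothers mated to males with the SMGA/EGFP transgene, in which the control region of smooth muscle gamma-actin drives a green fluorescent protein. The fluorescence guided the microdissection, with the urogenital sinus taken as the region without it. Samples were not pooled, sex was unknown, and replicates 1 and 2 were at Theiler stage 21 while replicates 6, 7 and 8 were at stage 22. The newborn reference (3 arrays) was RNA of whole wild-type FVB/N mice at postnatal day 1, pooled from 4 males and 4 females and serving as a common standard. All RNA was amplified in 2 rounds and labelled with biotin. Whether 2 arrays share an embryo is not stated, and p-values cover only the spread among the arrays at hand, which may be technical.

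FGF ligands are secreted proteins that bind receptor tyrosine kinases at the cell surface together with heparan sulfate, a sugar chain carried by proteins such as glypicans and syndecans. In organs built from an epithelium and a surrounding mesenchyme, Fgf7 and Fgf10 are typically made by mesenchyme and bind an epithelial form of Fgfr2, while Fgf9 is often made by epithelium or mesothelium and acts on receptors in mesenchyme. The activated receptor signals through the Ras and MAP kinase pathway, and Sprouty genes are among the targets that feed back on it.

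Promoter sequence was held in the RefSeq table (build GRCm38.p6) for 8 of the 10 genes, and Fgf8 and Fgfr1 had no entry. Each sequence covers 250 bases before and 50 bases after an annotated start. Those of the genes on which the results below turn are printed 5′ to 3′ on the gene's strand: Fgf9 (chr14:58072436-58072735, plus strand), Fgfr4 (chr13:55152568-55152867, plus strand), Spry1 (chr3:37639697-37639996, plus strand) and Spry2 (chr14:105896770-105897069, minus strand). Capitals mark the letters of 4 motifs on either strand.
Fgf9: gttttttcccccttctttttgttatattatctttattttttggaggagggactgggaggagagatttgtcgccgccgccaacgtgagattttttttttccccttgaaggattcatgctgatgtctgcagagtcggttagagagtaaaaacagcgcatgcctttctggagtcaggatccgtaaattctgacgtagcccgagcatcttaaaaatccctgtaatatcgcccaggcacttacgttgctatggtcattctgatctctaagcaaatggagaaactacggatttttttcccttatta
Fgfr4: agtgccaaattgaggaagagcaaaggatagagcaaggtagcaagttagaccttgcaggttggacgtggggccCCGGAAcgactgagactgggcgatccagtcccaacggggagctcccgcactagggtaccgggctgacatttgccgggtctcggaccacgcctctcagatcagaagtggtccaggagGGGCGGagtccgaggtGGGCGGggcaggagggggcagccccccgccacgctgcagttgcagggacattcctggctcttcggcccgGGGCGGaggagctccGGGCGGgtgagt
Spry1: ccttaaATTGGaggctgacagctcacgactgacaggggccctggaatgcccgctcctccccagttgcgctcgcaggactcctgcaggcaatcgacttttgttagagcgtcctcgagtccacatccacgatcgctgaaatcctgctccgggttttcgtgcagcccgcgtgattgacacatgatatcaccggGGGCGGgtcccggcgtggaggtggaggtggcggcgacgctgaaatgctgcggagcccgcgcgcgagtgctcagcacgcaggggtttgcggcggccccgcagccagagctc
Spry2: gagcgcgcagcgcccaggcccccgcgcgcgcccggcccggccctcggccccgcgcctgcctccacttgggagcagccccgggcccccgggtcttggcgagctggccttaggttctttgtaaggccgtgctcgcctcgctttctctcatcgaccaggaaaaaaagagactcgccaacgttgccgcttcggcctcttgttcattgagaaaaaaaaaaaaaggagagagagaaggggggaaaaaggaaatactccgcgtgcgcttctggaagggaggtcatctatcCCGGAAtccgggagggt

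The motifs searched were the TATA box TATAAA, the CCAAT box CCAAT, the GC box GGGCGG and the ETS core CCGGAA, the last being the letters bound by the ETS family, to which the FGF-responsive factors Etv4 and Etv5 belong. Of 32851 mouse promoters of this length, 13.6% held the TATA box, 37.4% the CCAAT box, 35.7% the GC box and 14.9% the ETS core. Matches of different motifs can overlap, though none did in the windows printed. Fgfr4 held 4 GC boxes and 1 ETS core, Spry1 held 1 GC box and 1 CCAAT box, and Spry2 held 1 ETS core. The Fgf9 window held none of the 4 motifs. The Spry1 and Spry2 windows were rich in CpG dinucleotides, with 29 and 28 against a median of 7 over all promoters, while Fgf9 held 12 and had a GC content of 42.7%.

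Values below are log2 intensities, with a floor at 5.65, and differences are on the same scale with their standard error (SE). A gene was called at a limma p under 0.05 after Benjamini-Hochberg adjustment over all 15019 genes. Levels of different genes come from different probes and are not set against each other.

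Between the regions, no gene of the family was called. In bladder against urogenital sinus 0 of 9 tested members passed, where 2.54% of all genes did, and 4 of 9 had an unadjusted p under 0.05, against 17.2% of all genes. In urethra against sinus 0 of 9 passed (background 0.0133%), with 1 at an unadjusted p under 0.05 against 10.4% of all genes. In bladder against urethra 0 of 9 passed (background 4.33%), with 0 at an unadjusted p under 0.05 against 24.3% of all genes. A joint test of any difference among the 3 regions called 0 of 9, against 3.29% of all genes, and its smallest adjusted p among the members was that of Fgf9 (limma adjusted p = 0.134). The median member difference was -0.58 in bladder against sinus, -0.24 in urethra against sinus and -0.35 in bladder against urethra, beside -0.19, 0.05 and -0.25 over all genes.

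**Figure D1:**
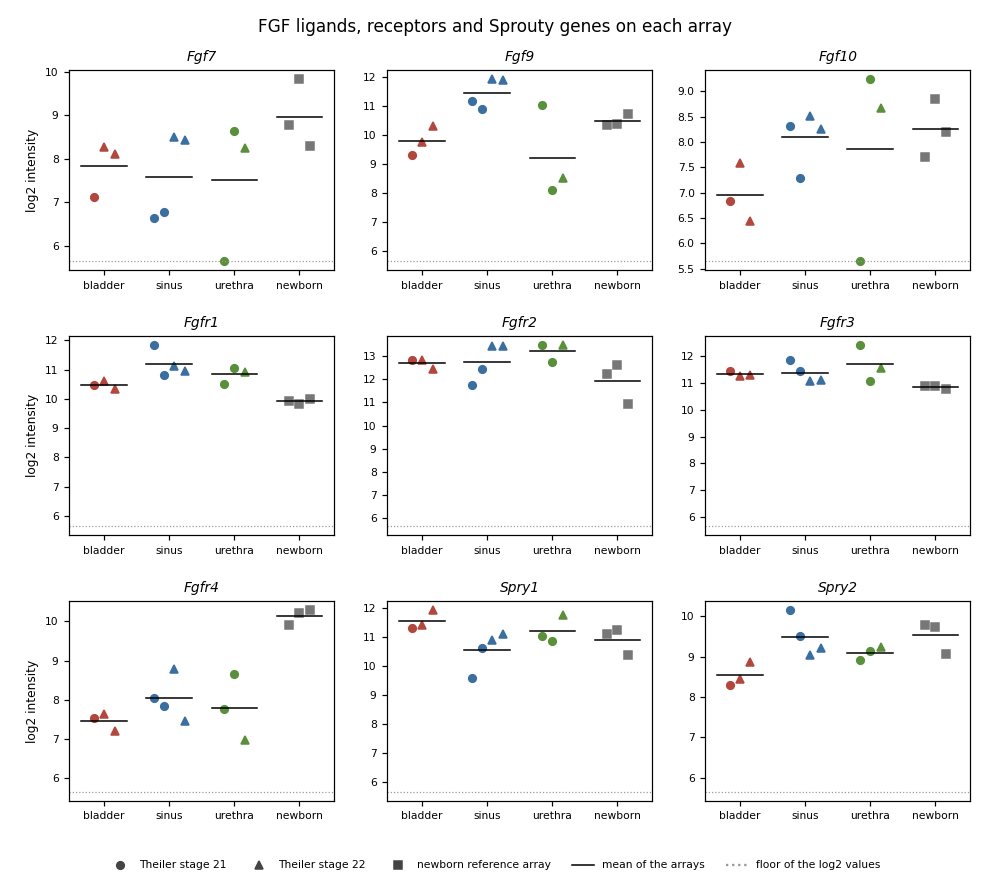
Log2 intensity (vertical axes) of the 9 members tested, 1 point per array, for bladder (3), urogenital sinus (4), urethra (3) and newborn reference (3); circles are Theiler stage 21, triangles stage 22, squares the reference, black lines the means and the dotted line the floor at 5.65. Fgf9 lay highest in the sinus apart from 1 urethra array at 11.02, and Fgfr4 on the reference arrays lay above every region array.

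Among the ligands, Fgf9 had the largest regional difference. It read 9.31, 9.76 and 10.32 on bladder replicates 2, 6 and 8. In the urogenital sinus it read 11.17, 10.88, 11.92 and 11.89 on replicates 1, 2, 6 and 7. All 4 sinus arrays lay above all 3 bladder arrays. In the urethra it read 11.02, 8.10 and 8.52 on replicates 1, 2 and 6, so that urethra replicate 1 lay inside the sinus range and the other two below the bladder. The newborn reference read 10.35, 10.39 and 10.73.

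Fgf9 was 3.18-fold lower in bladder than in sinus on these means, a log2 difference of -1.67 (SE 0.65; 95% interval -3.11 to -0.23; limma adjusted p = 0.225). Urethra against sinus gave -2.25 (SE 0.65, limma adjusted p = 0.269). Without urethra replicate 1 the latter difference was -3.16 (limma adjusted p = 0.106), and the bladder difference then had a limma adjusted p of 0.0552. The other Fgf9 probe set gave the same sign, at -1.18 in bladder and -1.07 in urethra against sinus. On that probe set the 4 sinus arrays, 8.99 to 9.40, lay above the bladder arrays, 7.74 to 8.39, and above the urethra arrays, 7.69 to 8.83. Weighting arrays by their fit, a setting under which 2668 genes rather than 382 were called in bladder against sinus, called Fgf9 in that comparison (-2.09, limma adjusted p = 0.00501) and in urethra against sinus (-2.95, limma adjusted p = 0.0179). In each comparison this was the only call in 29 alternative fits. Over the 16 settings other than leaving out a single array, the bladder difference ranged from -2.09 to -1.08 (limma adjusted p up to 0.438). The urethra difference ranged from -3.26 to -1.66 (limma adjusted p up to 0.561).

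Fgf10, a mesenchymal ligand required for the outgrowth of several organs, read 6.83, 7.59 and 6.44 in the bladder and 8.32, 7.28, 8.52 and 8.26 in the sinus. In the urethra it stood at the floor of 5.65 on replicate 1 and at 9.23 and 8.67 on replicates 2 and 6. The bladder arrays were thus mostly lower than the sinus arrays, with sinus replicate 2 inside the bladder range, and the urethra arrays spanned the whole range of the regions. The differences were -1.14 (SE 0.77, limma adjusted p = 0.457) for bladder against sinus and -0.24 (SE 0.77, limma adjusted p = 0.941) for urethra against sinus. Without urethra replicate 1 the urethra difference changed sign, to 0.86, with a limma adjusted p of 0.758. Fgf10 has a single probe set, and 6 of the 10 region arrays exceeded the filter level of 7.39.

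Fgf7, also called keratinocyte growth factor, had a larger difference between stages than between regions on its main probe set, neither called. It read 7.12 in the bladder at stage 21 and 8.28 and 8.10 at stage 22. In the sinus it read 6.63 and 6.78 at stage 21 and 8.50 and 8.42 at stage 22. In the urethra it read 5.65, the floor, and 8.63 at stage 21 and 8.25 at stage 22. All stage 22 arrays of bladder and sinus lay above their stage 21 arrays, and 1 of the 2 stage 21 urethra arrays was the highest of the regions. With region as a covariate the stage difference was 1.37 (SE 0.52; 95% interval 0.22 to 2.53; limma adjusted p = 0.146), with 0% of all genes called for stage. The regional differences of Fgf7 were at most 0.32 in size, with standard errors of 0.77 and 0.82.

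Fgf8, a ligand of outgrowth centres such as the distal urethral epithelium of the genital tubercle, had 1 probe set. It lay under the floor on all 13 arrays, at intensities of 3.97 to 18.1, the reference included, so it was not tested and no regional pattern could be read from it. Of 18 other FGF ligand genes, 11 were tested and 0 were called between regions. The shares over all genes were 2.54% in bladder against sinus, 0.0133% in urethra against sinus and 4.33% in bladder against urethra. The 11 were mostly lower in bladder than in sinus, with 1 of 11 above 0 and a median of -0.85 (all genes -0.19). Their average was 6.66 to 6.79 on bladder arrays, under the filter level of 7.39, and 7.35 to 7.73 on sinus arrays. A gene could pass the filter through 3 arrays of other groups, so this count is not read as a trend of the ligands. The smallest p values belonged to Fgf14 in bladder against sinus (-0.85, limma adjusted p = 0.245), Fgf5 in urethra against sinus (-1.55, limma adjusted p = 0.413) and Fgf1 in bladder against urethra (-1.27, limma adjusted p = 0.12).

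Among the receptors, Fgfr1, which in many organs is prominent in mesenchyme, read 10.48, 10.61 and 10.34 in the bladder and 11.84, 10.83, 11.11 and 10.96 in the sinus, so that the groups did not overlap. The urethra, at 10.51, 11.06 and 10.93, overlapped both. The difference of bladder from sinus was -0.71 (SE 0.29; 95% interval -1.35 to -0.07; limma adjusted p = 0.244), and the other 2 probe sets gave -1.48 and -1.57. When each array was centred on its median, the difference of the main probe set shrank to -0.12 (limma adjusted p = 0.888).

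Fgfr2, the receptor of Fgf7 and Fgf10 in its epithelial form, read 12.83, 12.83 and 12.45 in the bladder, 11.75, 12.42, 13.43 and 13.45 in the sinus, and 13.47, 12.74 and 13.49 in the urethra. The sinus arrays enclosed the bladder arrays, and the bladder difference from sinus was -0.07 (95% interval -0.99 to 0.86). On this main probe set the 2 sinus arrays at stage 22 were higher than the 2 at stage 21 by 1.36 on average. The bladder difference between stages was -0.19. The tests of whether the stage difference itself varies with region called 0 of 9 members and 0% of all genes in each of the 3 pairs of regions. Another Fgfr2 probe set gave a bladder difference of -1.11 and the third one -0.57, neither called. These 2 did not show the stage rise in the sinus. The former read 9.66 and 9.95 at stage 21 against 10.05 and 9.65 at stage 22. The latter read 8.07 and 6.72 against 7.16 and 6.80. Which of the receptor's epithelial and mesenchymal forms each probe set reads is not given in the sources used here.

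Fgfr3, whose product is abundant in adult urothelium, read 11.45, 11.26 and 11.31 in the bladder, 11.85, 11.46, 11.06 and 11.12 in the sinus, and 12.42, 11.09 and 11.57 in the urethra. The bladder arrays lay within the sinus range, with a difference of -0.03 and a 95% interval of -0.76 to 0.70. When each array was centred on its median the difference was 0.56 (limma adjusted p = 0.546). Fgfr4 read 7.54, 7.63 and 7.21 in the bladder, 8.06, 7.85, 8.78 and 7.46 in the sinus, and 7.76, 8.65 and 6.98 in the urethra. These values are close to the filter level of 7.39, the groups overlapped, and the bladder difference from sinus was -0.58 (SE 0.44, limma adjusted p = 0.518). On the scale of quantile-normalized or median-centred arrays that difference was 0.02 or 0.01.

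The 2 Sprouty genes had bladder differences of opposite sign, neither called. Spry1 read 11.31, 11.39 and 11.91 in the bladder and 9.59, 10.62, 10.89 and 11.08 in the sinus, so every bladder array was above every sinus array. The urethra, at 11.03, 10.84 and 11.73, overlapped both. The bladder difference from sinus was 0.99 (SE 0.39; 95% interval 0.12 to 1.86; limma adjusted p = 0.23), a 1.99-fold higher level.

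Spry2 read 8.30, 8.44 and 8.86 in the bladder, 10.15, 9.51, 9.05 and 9.22 in the sinus, and 8.91, 9.14 and 9.24 in the urethra. Every bladder array was below every sinus and every urethra array. The bladder difference from sinus was -0.95 (SE 0.34; 95% interval -1.70 to -0.19; limma adjusted p = 0.189), the smallest adjusted p of any member in the comparisons of regions with each other except the joint test. The other Spry2 probe set gave -0.38. Spry1 and Spry2 kept these signs under quantile normalization (1.10 and -0.50) and median centring (1.58 and -0.36). In all, 4 of 9 members (Fgf9, Fgfr1, Spry1 and Spry2) had no overlap between bladder and sinus, against 17.9% of all genes; 0 of 9 had none between urethra and sinus (8.22% of all genes), and 1 of 9, Spry2, between bladder and urethra (34.5% of all genes).

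**Figure D2:**
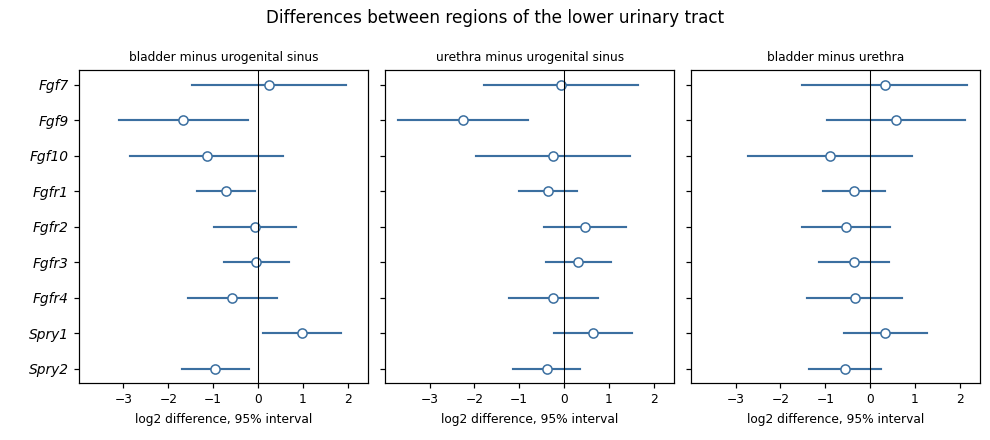
Log2 differences (horizontal axes) of the 9 members for the 3 pairs of regions, with 95% intervals; open circles are genes not called. The intervals of Fgf9, Fgfr1, Spry1 and Spry2 exclude 0 in bladder against urogenital sinus and that of Fgf9 in urethra against sinus, before adjustment over all genes.

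**Figure D3:**
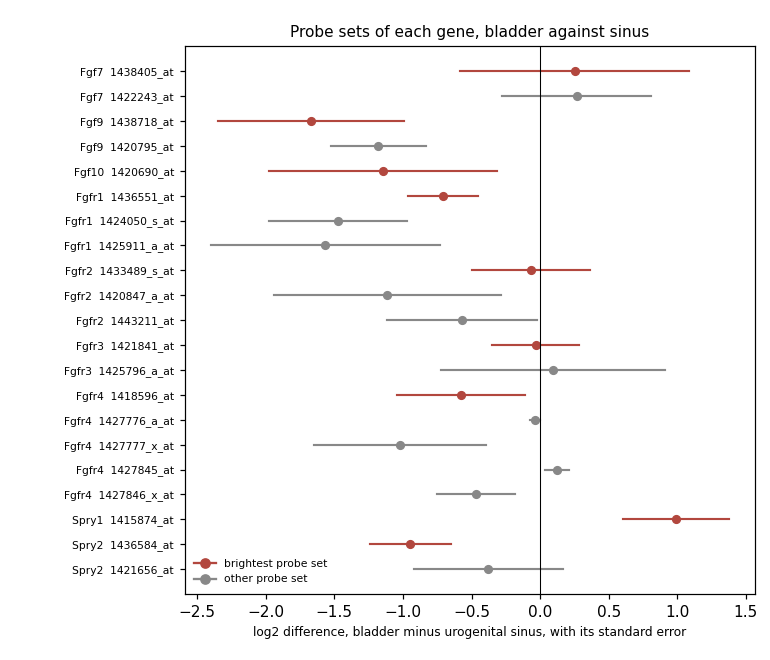
Log2 difference of bladder from urogenital sinus (horizontal axis) with its standard error for each of the 21 probe sets of the 9 members tested; red marks the probe set that stood for the gene. The 2 Fgf9 and 3 Fgfr1 probe sets all lie below 0.

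Some other measures of the samples moved with the same regions and some did not. A bulk sample cannot tell fewer cells of a type from less RNA per cell. Averaged over 15 epithelial marker genes, bladder arrays read 9.95 to 10.77, sinus arrays 11.15 to 12.00 and urethra arrays 11.65 to 12.84, and 0 of 15 were above 0 in bladder against sinus. For 12 genital tubercle genes these averages were 8.52 to 9.50 (bladder) against 10.81 to 11.42 (sinus), and for 12 neuron and glia genes 8.07 to 9.001 (bladder) against 8.35 to 11.78 (sinus). For 5 nephric and reproductive duct genes they were 7.76 to 9.27 (bladder), 9.63 to 10.89 (sinus) and 8.49 to 9.25 (urethra). Every sinus array thus lay above every bladder and urethra array, as for Fgf9 apart from urethra replicate 1. For 9 skeletal muscle genes they were 6.74 to 7.002 (bladder) against 7.32 to 8.60 (sinus), with no overlap. The averages of neuron and glia, mesenchyme, mesothelium, endothelium, macrophage and urothelium genes overlapped between bladder and sinus. Mesenchyme genes read 13.58 to 13.78 (bladder) against 13.24 to 13.65 (sinus). Mesothelium genes read 9.57 to 9.87 (bladder) against 8.48 to 9.61 (sinus). Actg2, the gene behind the dissection, read 13.51 to 13.97 on bladder arrays, 12.89 to 13.65 on urethra arrays and 7.99 to 10.77 on sinus arrays, the order given by the labels. The median intensity of every bladder array (142 to 238) was below that of every sinus array (259 to 389), and 122 of the 382 genes called between bladder and sinus were higher in the bladder, against 217 of 305 after median centring, which moved the median difference of all genes from -0.19 to 0.40. In bladder against urethra the split likewise moved from 257 higher of 651 to 238 of 328. Sinus replicate 1 and urethra replicate 1 had the highest means of 6 erythroid genes, 11.54 and 11.38, against 8.83 to 10.62 on the other region arrays. Without these 2 arrays the bladder differences from sinus were -1.77 for Fgf9 (limma adjusted p = 0.0502), -0.49 for Fgfr1, 0.67 for Spry1 and -0.73 for Spry2, none called. The part of these measures in the FGF differences was not tested.

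Genes of other lists of the pathway were called between regions. Of 18 heparan sulfate genes tested, 1 was lower and 0 were higher in bladder against sinus, where 2.54% of all genes were called. In bladder against urethra 3 were lower and 1 was higher, where 4.33% of all genes were called. Gpc1, a glypican that carries heparan sulfate, read 10.76, 10.38 and 10.46 in the bladder against 12.03, 12.09, 12.28 and 12.07 in the sinus and 12.52, 12.46 and 12.31 in the urethra. Every bladder array was more than 1 unit below every other region array. It fell by 1.58 in bladder against sinus (SE 0.19, limma adjusted p = 0.0045) and the difference from the urethra was -1.89 (SE 0.20, limma adjusted p = 0.00227). Both calls were lost after median centring (-0.99, limma adjusted p = 0.221, and -1.42, limma adjusted p = 0.108), and they were made in 27 and 28 of 29 alternative fits.

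Sdc1, an epithelial syndecan, read 12.62, 11.96 and 12.31 in the bladder and 14.68, 13.98 and 14.07 in the urethra, with no overlap. It fell by 1.95 in bladder against urethra (SE 0.38, limma adjusted p = 0.025). Sulf2, an enzyme that trims sulfate from heparan sulfate outside the cell, fell by 1.48 (SE 0.31, limma adjusted p = 0.0303), from 15.90, 15.23 and 15.51 in the urethra to 14.11, 13.79 and 14.31. In the other direction Hs6st2, which adds sulfate to heparan sulfate, read 13.41, 13.74 and 13.27 in the bladder against 8.99, 11.06 and 11.65 in the urethra, a rise of 2.91 (SE 0.60, limma adjusted p = 0.0291). Of 29 alternative fits, Sdc1 was called in 20, Sulf2 in 19 and Hs6st2 in 20, and leaving out any 1 bladder array ended each of these 3 calls. So did leaving out any 1 urethra array for Sdc1 and Sulf2, sinus replicate 6 for Sulf2 and urethra replicate 2 for Hs6st2, with limma adjusted p reaching 0.109, 0.134 and 0.121 in turn over the fits without 1 array. Median centring ended the calls of Sdc1 and Sulf2 (limma adjusted p = 0.136 and 0.245).

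Among 8 co-receptors and binding proteins, 1 was lower in bladder against sinus (2.54% of all genes called) and 1 in bladder against urethra (4.33%). Flrt3, a membrane protein that binds FGF receptors and is itself induced by FGF signalling, read 11.07, 11.60 and 12.00 in the bladder against 13.31, 12.75, 12.60 and 12.73 in the sinus, and fell by 1.29 (SE 0.28, limma adjusted p = 0.0459). The urethra arrays, 11.51, 11.01 and 10.96, also lay under every sinus array, with a difference of -1.69 (SE 0.28, limma adjusted p = 0.102). The bladder call of Flrt3 was made in 12 of 29 alternative fits and was lost when any 1 bladder or sinus array or urethra replicate 2 or 6 was left out (limma adjusted p up to 0.174). Fgfbp1, which releases FGFs from the matrix, fell by 1.68 in bladder against urethra (SE 0.35, limma adjusted p = 0.029), from 8.81, 8.32 and 9.20 to 7.47, 6.86 and 6.95, and this call was lost without any 1 bladder array, sinus replicate 6 or urethra replicate 1 or 6 (limma adjusted p up to 0.13). It was made in 17 of 29 alternative fits.

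**Figure D4:**
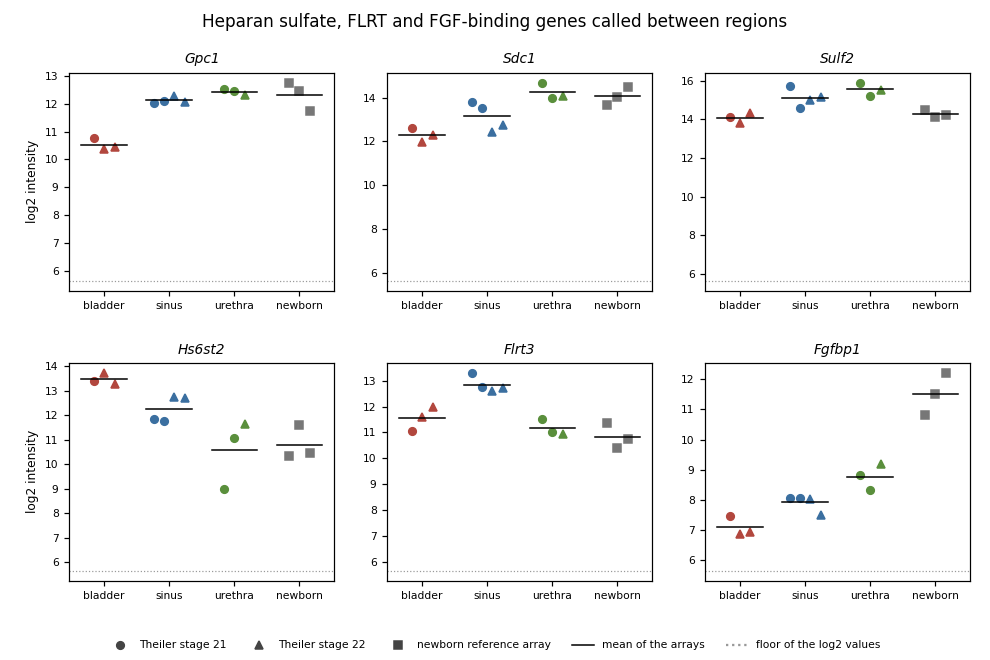
Log2 intensity (vertical axes) of 6 genes of the co-receptor and heparan sulfate lists called between regions, 1 point per array in bladder (3), urogenital sinus (4), urethra (3) and newborn reference (3); symbols as in the plot of member values. Gpc1 on the bladder arrays, 10.38 to 10.76, lies below every other array, and Hs6st2 is highest in the bladder, 13.27 to 13.74.

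Of 13 signal transducers of the receptors tested, 1 was called between regions, in bladder against urethra (4.33% of all genes called). Plcg1, the phospholipase that FGF receptors bind directly, fell by 1.15 (SE 0.28, limma adjusted p = 0.0488), a call made in 8 of 29 alternative fits and lost in 9 of the 13 that left out 1 array (limma adjusted p up to 0.186). The other 2 probe sets of Plcg1 gave -0.12 and 0.27, with arrays that overlapped, and the mean of the kept ones gave -0.34 (limma adjusted p = 0.727). Of 10 feedback and target genes tested, 0 were called between regions, where at most 4.33% of all genes were. The smallest p values there were those of Spred3 in bladder against sinus (-1.43, limma adjusted p = 0.0877), Etv5 in urethra against sinus (-0.86, limma adjusted p = 0.453) and Il17rd, a membrane inhibitor of FGF signalling, in bladder against urethra (1.42, limma adjusted p = 0.121). In bladder against sinus the median of the target list was -0.29, beside -0.19 over all genes.

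The sample titles are written in 3 styles. Among the regions, 1 style is that of all 3 urethra arrays and of no other array, so within the regions the urethra and its title style cannot be told apart. With title style as a block, which reaches that style through 1 reference array, Gpc1 was called in bladder against urethra (-2.79, limma adjusted p = 0.0358). The differences of Sdc1, Sulf2 and Hs6st2 were then -1.30, -1.55 and 2.48, and those of Fgfbp1 and Plcg1 -0.64 and -0.98, none called (limma adjusted p from 0.296 to 0.79). The other probe sets of Sdc1, Sulf2 and Hs6st2 had the sign of the main one in bladder against urethra, 3 of 3, 2 of 2 and 3 of 3. Of these 1, of Sdc1, was called in a fit over all probe sets, and the mean of the kept Hs6st2 probe sets gave 1.78 (limma adjusted p = 0.0785). In the fit over all probe sets the main ones of Sdc1, Sulf2, Hs6st2, Fgfbp1 and Plcg1 were not called (limma adjusted p = 0.068, 0.0813, 0.0851, 0.073 and 0.0903). Flrt3 lost its call in bladder against sinus there (limma adjusted p = 0.103), and its other probe set gave -1.44, not called (limma adjusted p = 0.324). Gpc1 stayed called against sinus and urethra (limma adjusted p = 0.00734 and 0.00222).

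Against the newborn whole mouse, Fgfr4 was the member called. Fgfr4 is known from liver and from developing muscle. It read 9.91, 10.23 and 10.29 on the reference arrays, above all 10 region arrays, whose highest value was 8.78. It fell by 2.68 in the bladder (6.42-fold; SE 0.67, limma adjusted p = 0.0227) and the urethra difference was -2.34 (5.08-fold lower; SE 0.67, limma adjusted p = 0.0463). In the sinus the difference was -2.11 (SE 0.65, limma adjusted p = 0.0608). The 2 called comparisons thus had 1 of 9 members called, against 17.0% of all genes for the bladder and 13.2% for the urethra, and the sinus had 0 of 9, against 13.8%. The 3 comparisons share the reference arrays, whose mean entered the fit as 1 sample, so the spread of that pool was assumed to equal that of the region samples.

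These calls come from the brightest of 5 Fgfr4 probe sets. In a fit over all probe sets that one had limma adjusted p of 0.0508, 0.117 and 0.0947 in bladder, sinus and urethra. Another 2 passed the filter. They gave -0.64 and -1.49 for the bladder, -0.18 and -0.47 for the sinus and -0.09 and -1.74 for the urethra. All had a limma adjusted p of at least 0.42 in that fit. The remaining 2 did not pass the filter and were lower on average in the regions. One gave -1.02, -0.99 and -1.02 and was called in all 3 (limma adjusted p = 5.01e-06, 5.06e-06 and 5.07e-06). The other gave -0.41, -0.53 and -0.54 and was called in sinus and urethra (limma adjusted p = 0.037 and 0.0429) but not in bladder (0.102). The region arrays of these 2 probe sets read 5.65, the floor, to 6.04, so the floor cut the spread on which these p-values rest. Their reference arrays read 5.65, 6.56 and 7.81 on the one and 5.65, 5.65 and 7.26 on the other. The fit did not hold this spread, since it takes the reference mean as 1 sample. The mean of the kept Fgfr4 probe sets gave -1.60 for the bladder (limma adjusted p = 0.115) and -1.39 for the urethra (limma adjusted p = 0.2). The bladder call was lost without bladder replicate 8 (limma adjusted p = 0.0575). The urethra call was lost without bladder replicate 2, 6 or 8 (0.0715, 0.0718 and 0.065), sinus replicate 2 (0.064), urethra replicate 1 or 6 (0.0866 and 0.0946) or reference replicate 3 (0.0547). Skeletal muscle markers, 14.10 to 14.29 on average on the reference arrays, were 6.74 to 11.21 on the region arrays, and their part in the Fgfr4 difference was not tested.

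On their main probe sets the other receptors had differences of the opposite sign, none called. Fgfr1 read 9.94, 9.83 and 9.999 on the reference arrays, below all 10 region arrays, and its sinus difference was 1.26 (SE 0.42; 95% interval 0.32 to 2.21; limma adjusted p = 0.0822). Fgfr2 read 12.22, 12.63 and 10.95 on the reference and was below every urethra array, with a difference of 1.30 (SE 0.63, limma adjusted p = 0.227). Fgfr3, at 10.88, 10.88 and 10.79 on the reference, was below all 10 region arrays, with differences of 0.49 in the bladder, 0.52 in the sinus and 0.84 in the urethra and limma adjusted p of 0.536, 0.566 and 0.325. The other probe sets of these receptors varied in sign. Those of Fgfr1 gave -1.35 and -0.23 in bladder, 0.13 and 1.33 in sinus and -0.03 and -0.40 in urethra, and the mean of its kept probe sets was -0.34 in bladder. One of Fgfr2 gave -1.04, -0.47 and -0.17 in bladder, sinus and urethra while the other gave 0.21, 1.32 and 1.75. That of Fgfr3 gave 0.53, 0.43 and -0.03, and none of these was called.

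Of the ligands, Fgf7 read 8.77, 9.82 and 8.30 on the reference and was lower on average in each region, with differences of -1.13 to -1.45, standard errors of 1.13 to 1.17 and no call. Fgf10, at 7.70, 8.86 and 8.20 on the reference, lay above the 3 bladder arrays and overlapped the other regions. Fgf9 was higher in the sinus than on the reference by 0.97 (SE 0.95) and its urethra difference was -1.28 (SE 0.98, limma adjusted p = 0.468). Without urethra replicate 1 the latter was -2.18 and was called (limma adjusted p = 0.0482). Spry1, at 11.10, 11.22 and 10.36, lay under the bladder arrays, and Spry2, at 9.78, 9.75 and 9.06, lay above them. Arrays of region and reference did not overlap for 8 of 9 members in the bladder (51.0% of all genes), 4 of 9 in the sinus (32.0%) and 4 of 9 in the urethra (40.9%).

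**Figure D5:**
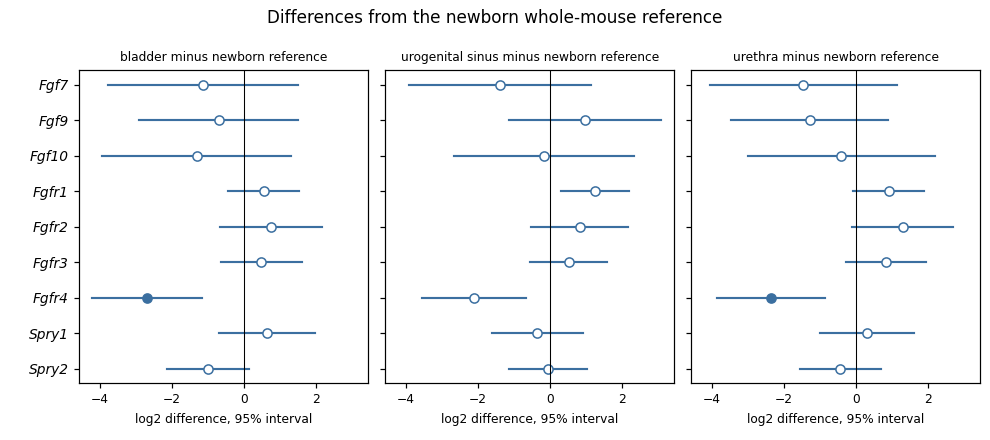
Log2 differences (horizontal axes) of the 9 members between each region and the newborn reference, with 95% intervals; filled circles are called genes. Fgfr4 is filled at -2.68 in the bladder and -2.34 in the urethra, and open at -2.11 in the sinus.

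Among the pathway genes, Klb, the co-receptor through which endocrine FGFs act on liver and fat, had the largest called difference from the newborn. It read 11.52, 11.88 and 12.45 on the reference arrays and 5.65 to 7.43 on the region arrays, where the floor limits the size of the change. It fell in every region, with differences of -6.20 in the bladder, -5.62 in the sinus and -5.72 in the urethra (limma adjusted p = 0.000178, 0.000288 and 0.000343). Fgfbp1 fell likewise, with -4.42, -3.59 and -2.74 (limma adjusted p = 0.000194, 0.000667 and 0.00461). Kl, which encodes the co-receptor of Fgf23, fell by 2.29 in the bladder (limma adjusted p = 0.0399). All bladder arrays of Klb and Kl and all urethra arrays of Klb were under the filter level. A gene with a whole region under it passes only through arrays of other groups, the reference among them, which favours a fall. The sign of such a difference is therefore not read as a result. The other probe sets of Klb and Kl stayed at or below 6.80 and 6.73 on every array, the reference included. Flrt3 rose by 2.01 in the sinus (limma adjusted p = 0.00997) and Flrt2 by 1.64 in the urethra (limma adjusted p = 0.0363). In a fit over all probe sets the other one of Flrt3 gave 1.71 and was not called (limma adjusted p = 0.261). The other 2 of Flrt2 gave 1.98, called, and 1.37, not called (limma adjusted p = 0.026 and 0.65).

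Fgf6, a ligand known from skeletal muscle, fell in all 3 regions, with differences of -3.01, -2.99 and -2.17 (limma adjusted p = 0.00696, 0.0066 and 0.0375), and Fgf12, an intracellular member of the family, fell by 2.83 in the bladder (limma adjusted p = 0.0152). These were the only calls among the 11 other ligands tested, where 17.0%, 13.8% and 13.2% of all genes were called in bladder, sinus and urethra. All bladder arrays of both genes and all sinus arrays of Fgf6 were under the filter level, and Fgf6 stood at the floor on 2 of 3 bladder and 3 of 4 sinus arrays. Here too the filter favoured a fall, and the floor limits the size of these differences. Over other settings the difference of Fgf6 in the bladder ranged from -4.10 to -1.39. Fgf12 read 10.31, 8.82 and 7.25 on the reference arrays, a spread that the fit did not hold. Its other 2 probe sets gave -1.61 and -1.69 in the bladder, not called in a fit over all probe sets (limma adjusted p = 0.242 and 0.13). Of 10 feedback and target genes 1 was called, Il17rd, against 17.0% of all genes in the bladder comparison. Il17rd rose by 2.89 in the bladder (SE 0.68, limma adjusted p = 0.018). It read 13.25, 13.32 and 13.52 in the bladder and 11.54, 10.62 and 9.27 on the reference. The other Il17rd probe set gave 1.06 and was not called in a fit over all probe sets (limma adjusted p = 0.506). Of 13 signal transducers 1 was called, Sos1, against 13.8% of all genes in the sinus comparison. Sos1, which loads Ras with GTP, rose by 1.67 in the sinus (limma adjusted p = 0.0467). Of its 4 other probe sets 1 gave a called difference of 2.08, while 3 gave 0.54, 0.09 and -0.06, and the mean of its kept probe sets gave 1.06 (limma adjusted p = 0.344). Among heparan sulfate genes Sulf1, an enzyme related to Sulf2, rose by 2.12 in the bladder and 2.40 in the sinus (limma adjusted p = 0.0278 and 0.015), while Gpc1 and Sdc1 fell in the bladder, with -1.78 and -1.76 (limma adjusted p = 0.00203 and 0.04995). One of the other 2 probe sets of Sulf1 in the bladder and 1 of the other 3 of Sdc1 gave the opposite sign, at -0.69 and 0.13. Of the 13 fits that each left out 1 array, Sdc1 and Sos1 were called in 4, Fgf6 in the urethra in 6, Kl in 7, Flrt2 in 8 and Sulf1 in the bladder in 11, while Klb, Fgfbp1, Fgf12, Il17rd, Gpc1, Flrt3, Sulf1 in the sinus and Fgf6 in the other regions were called in all 13. In a fit over all probe sets the main ones of Sdc1, Sos1, Kl and Flrt2 were not called (limma adjusted p = 0.093, 0.0827, 0.0751 and 0.0661). Nor were those of Fgf6 in the urethra and Sulf1 in the bladder (limma adjusted p = 0.0667 and 0.0602).

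Between Theiler stages 22 and 21, 0 of 9 members and 0% of all genes were called, and 2 of 9 had an unadjusted p under 0.05, against 25.5% of all genes. Beside Fgf7, this was Spry1, which was higher at stage 22 by 0.70 (SE 0.24; 95% interval 0.16 to 1.25; limma adjusted p = 0.124). By region the stage difference of Spry1 was 0.34 in the bladder, 0.88 in the sinus and 0.80 in the urethra. That of the main Fgf7 probe set was 1.07, 1.76 and 1.10. Among the target genes Dusp6, the phosphatase that shuts off ERK downstream of FGF receptors, had the smallest p, with a difference of 1.62 (SE 0.25, limma adjusted p = 0.077). Bladder at stage 21 and urethra at stage 22 had 1 array each.

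Over the 10 region arrays, which share their floor and scaling, the genes most like each member by Pearson's r were the following. Fgf9 was most like Slc43a2 (0.94), Hbegf (0.94) and Gm3515 (0.93), Fgf7 like Rin2 (0.96), Lats1 (0.95) and 4930562C15Rik (0.95), and Fgf10 like Ppp1r26 (0.96), Trex2 (0.94) and Mdm1 (0.93). Fgfr1 was most like 1700042G07Rik (0.97), Fgfr2 like 4930480K23Rik (0.95), Fgfr3 like Gnai2 (0.95) and Fgfr4 like Nr0b2 (0.88). Spry1 was most like Nptx2 (0.97) and Spry2 like Snai1 (0.96). No member was among the 3 closest genes of another.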

How the data were processed

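The authors deposited linear intensity values of 45101 probe sets on 13 arrays in 1 table, and the submitters' processing notes name GCOS, the array maker's software. How scans became this table, and which genome build was used, is not given in the sources used here. Every array had a 2% trimmed mean intensity of 1500. Intensities were floored at the 20th percentile (50.23), log2 transformed and kept where at least 3 arrays exceeded the 40th percentile (167.76, or 7.39 on the log2 scale), which left 33125 probe sets, 27463 of them with 1 symbol in the platform annotation. Each of 15019 genes was read by its brightest probe set on average. Amplification in 2 rounds shortens RNA towards its 3′ end, which lowers probe sets far from it.

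limma 3.58.1 in R 4.3.3 (lmFit, eBayes with an intensity trend) fitted the 10 region arrays together (7 residual and 2.83 prior degrees of freedom), with the mean of the 3 reference arrays as 1 further sample where needed, and p-values were adjusted over all genes. The fits were tested on simulated data with 200 of 15019 genes changed in the bladder. In bladder against sinus, 4% of log2 changes of 1, 60% of those of 2 and 80% of those of 3 were called. Against the reference these shares were 0%, 20% and 40%. The simulation set no floor and changed fewer genes than the 382 and 2557 called in these 2 comparisons of the data. Its shares therefore need not hold for the data. An uncalled difference of such a size is in any case not evidence that the groups are alike. The genes named were all 10 members, of each other FGF list and comparison up to 4 called genes or else the 1 with the smallest p, and the 3 genes most like each member. Members, lists, rule and tests were chosen with earlier results of these data known. The other probe sets of called pathway genes were compared after seeing the data. Promoters are RefSeq's.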

Additional observations from a re-analysis of the deposited data

Results flagged for a closer look

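No member of the FGF family stood apart within the 4 urogenital sinus arrays by Dixon's test (9 genes tested), the group whose size allows it, and the tests of whether a stage difference varies with region, some of whose groups have 1 array, called 0 members. Of the 24 members and called pathway genes tested this way, 3 were picked out, where chance picks about 1 in 20. Fgf6 read 6.20 on sinus replicate 6 while the other 3 stood at the floor of 5.65, where equal values let any gap pass. Fgfbp1 read 7.51 on sinus replicate 7, below the other 3 at 8.04 to 8.08. Sos1 read 13.71 on sinus replicate 7, above the other 3 at 13.32 to 13.38.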

How the results depend on the processing

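Of 1807 member differences under alternatives, 1758 were counted as keeping their side of the threshold, 20 lost a call, 29 gained one and 0 calls reversed. Among those not called, 119 changed sign. The 1758 include the differences within title styles, which have no p-value and so no side. Apart from Fgfr4 in bladder and urethra against the reference, no member was called to begin with, so the count is no measure of stability. The differences of other named genes lost a call in 147 of 721. Members called in bladder against sinus rose from 0 to 2 (Fgf9 and Fgfr1) and in urethra against sinus to 1 (Fgf9) with array weights, which also called 1 for stage (Fgf7), 1 in the joint test, 2 in bladder, 3 in sinus and 3 in urethra against the reference. Against the reference, the bladder count fell from 1 to 0 with median centring and with the mean of the kept probe sets, and the urethra count fell to 0 under these and with no floor or no filter. The sinus count rose from 0 to 2 with quantile normalization, with the reference as 3 samples and with title style as a block, and to 1 with the floor at the 40th percentile, the filter at the 60th percentile and without the arrays numbered 1. The urethra count rose to 2 with title style as a block and without the arrays numbered 1, which also gave 1 in the joint test. Leaving out 1 array gave 0 to 1 in the joint test and in each comparison with the reference, and 0 elsewhere. The cause of these changes was not tested.

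Whether the numbers in the sample titles pair the samples is not stated: 5 of the 7 same-number pairs correlated above 0.1 (-0.17 to 0.36), pairs of different numbers ran from -0.51 to 0.41, and not every array correlated best with its own number. With the title number as a fixed replicate block, 0 members were called between regions and the count of all genes fell from 382 to 132 in bladder against sinus and from 651 to 140 in bladder against urethra. As a random replicate block it gave 0 members, with 669 genes in bladder against sinus, 58 in urethra against sinus and 1171 in bladder against urethra. Title style, fitted as a block, left 55 genes in bladder against urethra. Within the 2 title styles that hold both groups, the bladder difference from sinus was -1.79 and -1.57 for Fgf9, -0.72 and -0.62 for Fgfr1, 0.98 and 0.83 for Spry1 and -1.20 and -0.36 for Spry2. The second value of each pair sets 1 bladder array, replicate 8, against 1 sinus array, replicate 7. Intensities near the floor limit Fgf7, Fgf8, Fgf10 and Fgfr4, and Fgf5, Fgf6, Fgf12, Fgf14, Kl, Klb and Spred3 among the other genes.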
